A study of Rattus norvegicus with 4 samples.

Results

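Immediate early genes were examined in the skeletal muscle of male rats, all 15 weeks old. The 10 genes, Fos, Jun, Junb, Atf3, Egr1, Nr4a1, Nr4a3, Btg2, Ier2 and Zfp36, were chosen by name and found through the RefSeq accession of their array probes. Each had 1 probe, so 10 of the 30015 probes used, and 10 of 15040 named genes, were members. The groups were exercised SPORTS (1 array), sedentary SPORTS (1 array) and wild type (WT, 2 arrays), all on Wistar background. SPORTS is a hyperactive mutant line, and the design text calls the WT rat sedentary too. The labels name neither the mutated gene, the muscle, nor the exercise and the interval after it. They do not state that the WT arrays came from separate animals, so the WT spread, which enters every p-value, may be technical.

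Immediate early genes are transcribed within minutes of a stimulus, without new protein synthesis, from promoters that are already primed. Growth factor, calcium and stress kinases act on serum response factor, bound at CArG boxes, and on CREB, bound at cAMP response elements. The mRNAs are short-lived, so their level follows recent signalling, and in muscle they are known to respond to contraction, stretch and damage. Fos, Jun and Junb encode subunits of AP-1, and Atf3 a stress-induced leucine zipper factor that can pair with Jun proteins. Egr1 encodes a zinc finger factor, and Nr4a1 and Nr4a3 encode orphan nuclear receptors known in rodent muscle for control of glucose and fat use. Of the other 3 members, Btg2 and Zfp36 do not encode DNA-binding transcription factors, as the working name would have it. Btg2 encodes an antiproliferative cofactor linked to mRNA deadenylation, Ier2 a small nuclear protein and Zfp36 tristetraprolin, which directs the decay of AU-rich mRNAs.

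The RefSeq promoter table held 6 of the 10 members, each as a window of 250 bases before the gene start and 50 after it. The windows of 4 are shown. Egr1 and Nr4a1 were among the members farthest above WT on the exercised SPORTS array, and Ier2 and Btg2 did not pass the test on either SPORTS array. Capitals mark matches to the motifs searched on both strands, which were the cAMP response element TGACGTCA, its half-site TGACG, the CArG box, the AP-1 site TGANTCA, the Egr site GCGNGGGCG and the NR4A site AAAGGTCA. A full cAMP response element also holds its half-site on each strand.
Egr1 (GRCr8, chr18:26736828-26737127, plus strand): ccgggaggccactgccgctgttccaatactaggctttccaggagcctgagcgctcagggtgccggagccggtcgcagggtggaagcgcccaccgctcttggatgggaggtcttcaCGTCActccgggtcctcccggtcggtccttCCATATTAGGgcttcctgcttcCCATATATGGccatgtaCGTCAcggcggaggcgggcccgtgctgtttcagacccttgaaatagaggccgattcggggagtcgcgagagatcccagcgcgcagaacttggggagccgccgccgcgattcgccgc
Nr4a1 (GRCr8, chr7:134259888-134260187, plus strand): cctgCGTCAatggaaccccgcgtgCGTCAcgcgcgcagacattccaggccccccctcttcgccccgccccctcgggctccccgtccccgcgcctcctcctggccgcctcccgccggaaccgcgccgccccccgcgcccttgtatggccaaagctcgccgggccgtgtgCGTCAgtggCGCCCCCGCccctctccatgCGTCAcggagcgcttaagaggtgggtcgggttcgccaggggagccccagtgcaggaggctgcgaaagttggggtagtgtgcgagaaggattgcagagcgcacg
Ier2 (GRCr8, chr19:40399123-40399422, plus strand): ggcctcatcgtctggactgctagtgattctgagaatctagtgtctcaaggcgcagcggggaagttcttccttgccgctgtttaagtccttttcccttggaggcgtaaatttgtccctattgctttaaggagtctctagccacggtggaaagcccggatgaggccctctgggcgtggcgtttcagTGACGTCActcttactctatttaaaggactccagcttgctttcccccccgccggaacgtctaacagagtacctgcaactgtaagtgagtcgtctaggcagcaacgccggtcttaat
Btg2 (GRCr8, chr13:48087641-48087940, minus strand): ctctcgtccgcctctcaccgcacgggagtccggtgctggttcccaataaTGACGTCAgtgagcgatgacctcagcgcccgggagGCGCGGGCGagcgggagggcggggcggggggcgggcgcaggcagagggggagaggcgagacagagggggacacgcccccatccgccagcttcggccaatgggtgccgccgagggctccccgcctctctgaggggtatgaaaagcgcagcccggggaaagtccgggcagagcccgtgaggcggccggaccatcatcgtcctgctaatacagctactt
The Egr1 window held 2 CArG boxes, at -105 to -96 and -83 to -74 from the gene start, with a half-site on either side of the pair, at -135 and -66. CArG boxes were present in 1.64% of 33469 rat promoter windows of the same length. The Nr4a1 window held 4 half-sites, starting at -246, -226, -82 and -53, and 1 Egr site at -73 to -65. Half-sites were common, with a match in 21.2% of all windows, and Egr sites in 4.98%. Full cAMP response elements, present in 1.83% of windows, stood at -66 to -59 in Ier2 and at -201 to -194 in Btg2. Btg2 also held an Egr site, at -166 to -158. Of the other windows, Junb held 1 half-site, and Zfp36 a CArG box and an Egr site. None of the 6 windows matched the AP-1 or NR4A motif, found in 7.33% and 1.43% of all windows. These matches describe the letters only.

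**Figure D1:**
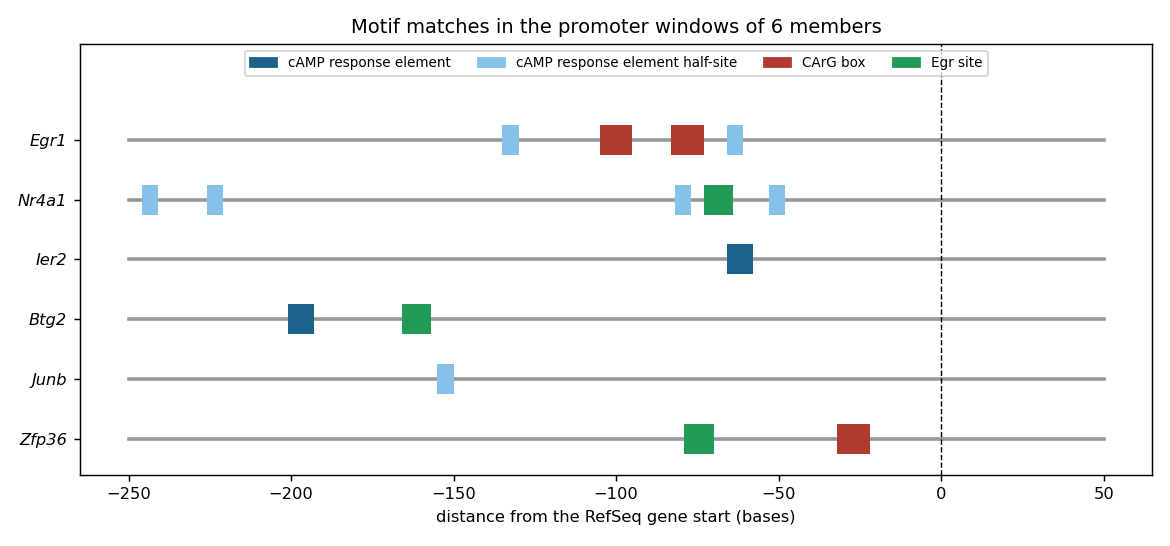
Motif matches along the promoter windows of the 6 members with a RefSeq window, by distance in bases from the gene start (dashed line), with a colour for each motif. Egr1 carries 2 CArG boxes between 2 half-sites, Nr4a1 carries 4 half-sites, and Ier2 and Btg2 each carry 1 full cAMP response element.

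All values below are log2 of the processed signal minus the 75th percentile of the array, so 0 is the level of the probe at that percentile. Levels of different probes are not compared. On the exercised SPORTS, sedentary SPORTS, WT 1 and WT 2 arrays, the scanner software found 46.0%, 50.3%, 48.7% and 48.9% of the probes well above background. All 4 arrays shared 1 slide, and their number limits the precision. The muscle markers Acta1, Ckm, Mb, Des and Myl1 were bright on every array, between 6.64 and 8.93. Both SPORTS arrays stood apart from WT in fast fibre genes, and the exercised one in slow fibre genes too. The median difference of the fast fibre genes was -1.86 on the sedentary SPORTS array and 1.22 on the exercised one. For slow fibre genes it was -0.07 on the sedentary and -2.42 on the exercised array. Of 11 fast fibre genes, 9 were called higher there than in WT and 1 lower, and of 9 slow fibre genes 8 were called lower. The summed fast fibre signal, in multiples of the array's 75th percentile, was 3590 on the exercised array, with 453.0 on the sedentary SPORTS array, against 1428 and 1487 on the WT arrays. For slow fibre genes the sums were 444.1 and 1949, against 2084 and 2030. Single genes differed by far more than the medians. Fast fibre differences on the exercised array ran from -0.43 for Myh2 to 7.52 for Pvalb. Myh4 differed by 7.40 there and by -3.78 on the sedentary array. What part fibre type had in the values below was not tested.

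Of the 10 members, 8 were well above background on all 4 arrays. Nr4a3 was so on the SPORTS arrays alone and entered the tests through them. Zfp36 was well above background on no array and was not tested. Counts of arrays that lie above or below others are therefore given over the 8, beside the same share over the 13031 probes well above background on all 4 arrays.

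Among the AP-1 genes, Fos and Junb were highest on the exercised SPORTS array. Junb passed the test there, Fos only with normexp background correction, and Jun passed none. Fos was at 0.21 on the exercised SPORTS array and at -1.39 on the sedentary one, against -1.34 and -0.50 on the WT arrays. The WT arrays differed by 0.85, a gap that 1.61% of the probes tested reached. The exercised difference of 1.13 ± 0.44 from the WT mean (SE) missed the threshold (adjusted p = 0.130, limma with 3 groups). With normexp background correction it was 1.04 and was called (adjusted p = 0.0322, with a range of 0.0322 to 0.208 over the alternatives). The exercised value was 1.56 above WT 1 and 0.71 above WT 2, so the size depends on which WT array it is set against.

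Junb was at 2.89 on the exercised SPORTS array and at 2.03 on the sedentary one, against 1.87 and 2.12 on the WT arrays. Only the exercised array lay outside the WT pair. Junb rose there by 0.90 ± 0.14 (adjusted p = 0.0243), or 1.86-fold, a call lost when dim probes were kept (adjusted p = 0.0674, with a range of 0.0100 to 0.0674 over the alternatives). Jun was at 2.71 on the exercised SPORTS array and at 2.57 on the sedentary one, against 2.72 and 2.85 on the WT arrays. It lay below both WT arrays on both SPORTS arrays, by as little as 0.01 on the exercised one. Its differences were -0.08 ± 0.09 on the exercised and -0.21 ± 0.09 on the sedentary array (adjusted p = 0.541 and 0.227), and the first turned to 0.15 when arrays were scaled by their median.

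Atf3 had the largest exercised difference of the 8 members measured on all arrays. It was at 3.39 on the exercised SPORTS array and at 1.49 on the sedentary one, against 0.97 and 1.29 on the WT arrays. Both SPORTS values were above both WT values, the sedentary one by 0.20 from the nearer. Atf3 rose by 2.26 ± 0.18 on the exercised array (adjusted p = 0.00824), or 4.79-fold, and 1.42% of the probes tested had a difference as high. On the sedentary array the difference was 0.36 ± 0.18 (adjusted p = 0.260).

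Among members measured on all arrays, Egr1 alone was 2-fold or more over both WT arrays on both SPORTS arrays, though not with normexp. It was at -0.23 on the exercised SPORTS array and at -0.97 on the sedentary one, against -2.35 and -1.998 on the WT arrays, and the groups did not overlap. Taken as 2 arrays against 2, the SPORTS mean differed from the WT mean by 1.57 ± 0.34, or 2.97-fold (unadjusted p = 0.0138, adjusted p = 0.531, limma). On the exercised array Egr1 rose by 1.94 ± 0.19 (adjusted p = 0.0116), or 3.84-fold. On the sedentary array it differed by 1.20 ± 0.19 (adjusted p = 0.0670), or 2.30-fold, and 1.70% of the probes tested were as high. That difference passed with normexp (1.01, adjusted p = 0.0136) and among probes well above background on all arrays (adjusted p = 0.0360), in a range of 0.0136 to 0.151 over the alternatives.

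The NR4A members Nr4a1 and Nr4a3 lay on different sides of WT on the sedentary SPORTS array. Nr4a1 was at 3.82 on the exercised SPORTS array and at 1.52 on the sedentary one, against 1.90 and 2.17 on the WT arrays. It was high on the exercised array alone, and lowest on the sedentary SPORTS array. Its probe has 10 spots on each array, whose SD was between 0.02 and 0.05. The highest spot on the sedentary array (1.56) was below the lowest of WT 1 (1.84). The lowest on the exercised array (3.71) was above the highest of WT 2 (2.24). Spots of the WT arrays did not overlap either, with the highest of WT 1 at 1.96 and the lowest of WT 2 at 2.14. Spots share the RNA and the hybridisation, so they show only the noise between spots of an array. Neither the noise between arrays nor the spread between animals is in them. Nr4a1 rose by 1.78 ± 0.15 on the exercised array (adjusted p = 0.00921), or 3.43-fold. The sedentary difference of -0.52 ± 0.15 missed the threshold (unadjusted p = 0.0481, adjusted p = 0.135).

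Nr4a3 was at -2.18 on the exercised SPORTS array and at -3.19 on the sedentary one, against -5.78 and -5.84 on the WT arrays. In processed signal these were 190.0 and 122.0 on the SPORTS arrays, and 19.9 and 18.9 on the WT arrays. The WT signals were not well above background, so only a bound holds there. It sets the SPORTS value against the mean over the WT arrays of the lowest signal well above background, at -3.62. Nr4a3 was at least 2.71-fold higher on the exercised array and at least 1.35-fold higher on the sedentary one. It passed the filter through the SPORTS arrays alone, so it had to differ, and its adjusted p-values in the fit (0.00409 and 0.0304) rest on WT values with no measured spread and are no support. The fitted sedentary difference of 2.63 was 1.11 with normexp.

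**Figure D2:**
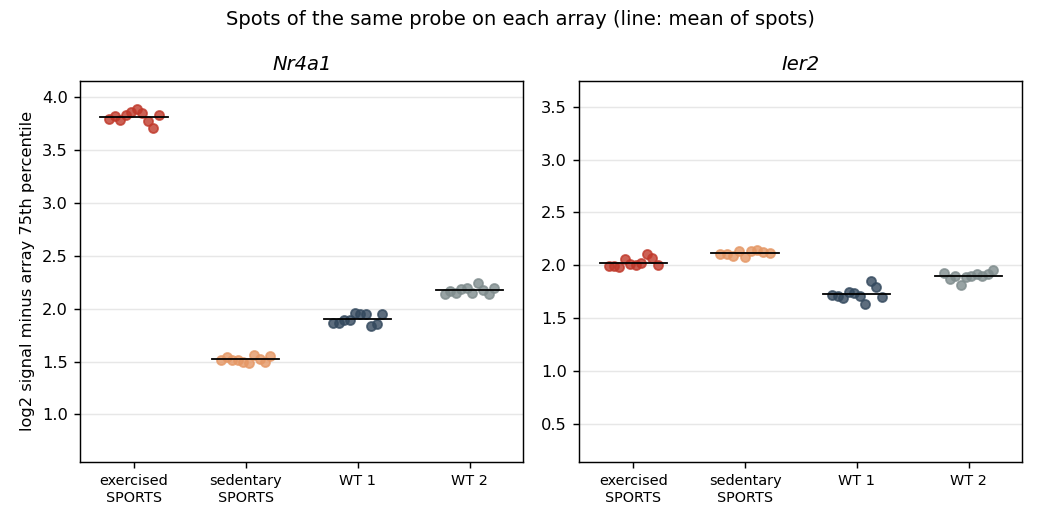
Spot values of the Nr4a1 and Ier2 probes, which have 10 spots on each array, as log2 signal minus the array's 75th percentile, with a line at the mean. Nr4a1 spots lie near 3.82 on the exercised SPORTS array and near 1.52 on the sedentary one, on opposite sides of both WT arrays, while the Ier2 means of both SPORTS arrays lie above each WT mean by 0.13 to 0.39.

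None of the remaining 3 members passed the test, which Zfp36 did not enter. Ier2 was at 2.02 on the exercised SPORTS array and at 2.12 on the sedentary one, against 1.73 and 1.90 on the WT arrays. The groups did not overlap, and the differences were 0.21 ± 0.11 and 0.30 ± 0.11 beside a WT gap of 0.17 (adjusted p = 0.202 and 0.173). The exercised difference was 0.44 with scaling by the median (adjusted p = 0.0513) and 0.10 with quantile normalization (adjusted p = 0.477). Btg2 was at 0.91 on the exercised SPORTS array and at 1.27 on the sedentary one, against 0.82 and 1.20 on the WT arrays. Its exercised value lay between the WT arrays, with differences of -0.10 ± 0.21 and 0.26 ± 0.21 (adjusted p = 0.705 and 0.430), the first turning to 0.12 with scaling by the median. Zfp36 was at -5.67 on the exercised SPORTS array and at -4.57 on the sedentary one, against -5.82 and -4.11 on the WT arrays, none well above background. Junb and Ier2 lie 318 kb apart on chromosome 19 of GRCr8, and on the exercised array Junb passed the test while Ier2 did not; the difference between the genes was not tested.

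**Figure D3:**
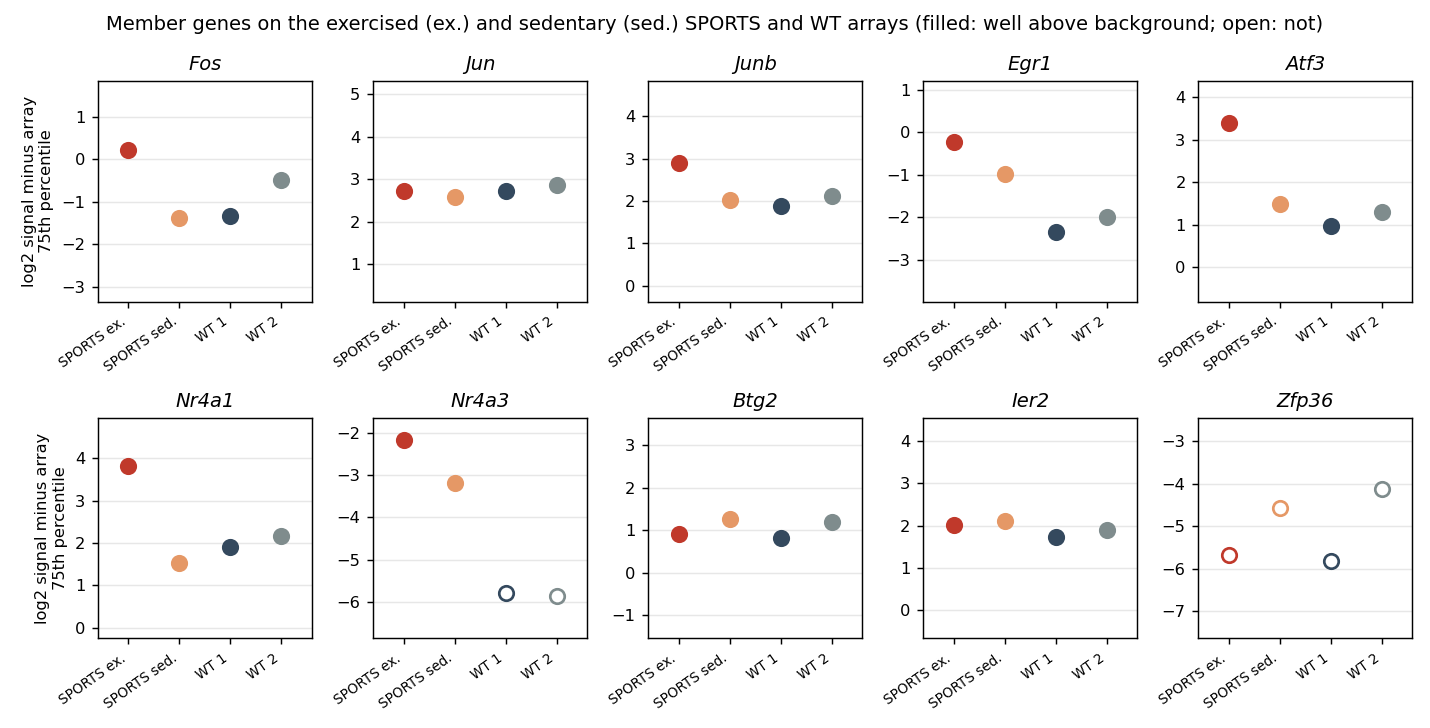
Each member on the exercised and sedentary SPORTS and the WT arrays, as log2 signal minus the array's 75th percentile, with the same span on every vertical axis and open circles for values not well above background. Egr1 and Nr4a3 are higher on both SPORTS arrays, Fos, Junb, Atf3 and Nr4a1 stand out on the exercised array, and Jun, Ier2 and Btg2 vary least among the members measured on all arrays.

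Set together, both SPORTS arrays lay above both WT arrays for Egr1, Atf3 and Ier2, 3 of the 8, against 23.1% of the probes. Both lay below for Jun, 1 of the 8, against 20.8%, and for none with scaling by the median. Both lay at least 2-fold above for Egr1, against 0.422% of the probes, and for none of the 8 with normexp. The test of 2 arrays against 2 called none of the 8 and 0% of all 14769 probes. The test mixes exercise with genotype, and the difference between the SPORTS arrays enters its spread. At an unadjusted p under 0.05 it had Egr1 alone of the 8, against 7.55% of the probes. Without the exercised array it called none of the 8 and 6.51% of all probes, and without the sedentary SPORTS array 4 of the 8 and 53.5% of all probes. The median SPORTS difference of the 8 was 0.40, against 0.03 over the 13031 probes.

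On the exercised array 6 of the 8 lay above both WT arrays, against 50.1% of the probes, and Egr1, Atf3 and Nr4a1 at least 2-fold above, against 7.70%. The median difference of the 8 was 1.01, against 0.05 over the 13031 probes. limma called Junb, Egr1, Atf3 and Nr4a1 higher, 4 of the 8, and none lower, where 27.4% of all probes were called higher and 26.1% lower. Calls in both directions were thus frequent among all probes tested, a wider set than the 13031, with dimmer probes in it. Scaling by the median moved the share of calls that were higher to 69.0%, where it was 51.2% by the 75th percentile. It moved the median of all probes tested to 0.23, against 0.00. On the sedentary array Egr1 alone of the 8 was 2-fold or more over both WT arrays, against 1.26% of the probes. The median of the 8 was 0.15, against -0.01. limma called none of the 8, where 2.93% of all probes were called higher and 3.59% lower. Both single-array comparisons share the WT arrays and take their spread from them, so the spread among SPORTS rats is not in them.

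**Figure D4:**
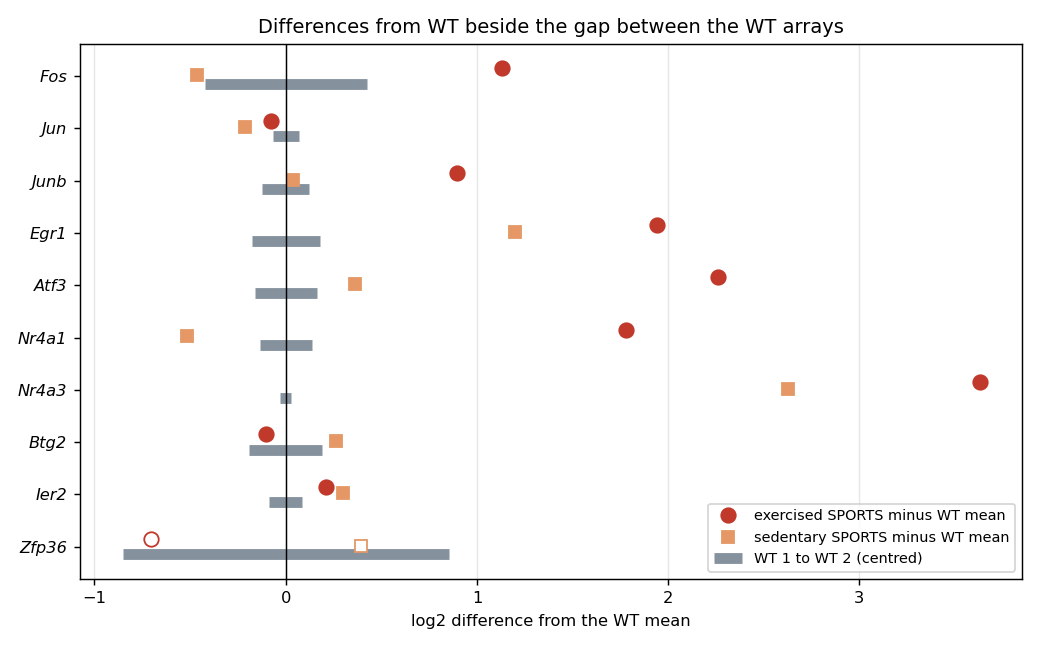
Differences of the exercised (circles) and sedentary (squares) SPORTS arrays from the WT mean on the log2 scale, above a bar as long as the gap between the WT arrays; open symbols mark Zfp36, which was not tested. On the exercised array Atf3 lies at 2.26, Egr1 at 1.94 and Nr4a1 at 1.78, beside 0.36, 1.20 and -0.52 on the sedentary one, and the WT values of Nr4a3 are not well above background, so its 3.63 is no measured size.

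Between the SPORTS arrays, which by their labels differ in exercise, there is no replicate and no test. Nr4a1 was 4.90-fold higher on the exercised than on the sedentary array, Atf3 3.72-fold, Fos 3.03-fold and Nr4a3 just over 2-fold, a log2 difference that was 0.73 with normexp and so under 2-fold. Of the 8, Fos, Atf3 and Nr4a1 were at least 2-fold higher, against 8.92% of the probes, and none was at least 2-fold lower, against 8.58%. Junb joined them with scaling by the median. Of the 2-fold differences among all 14769 probes tested, 41.8% were higher, and 55.4% with that scaling; among the 13031 probes it was 51.0%. Egr1 differed by 0.74, Junb by 0.86 and Jun by 0.14 on the log2 scale. Btg2 (-0.37) and Ier2 (-0.09) ran the other way, Ier2 turning to 0.10 with scaling by the median. Fos and Nr4a1 lay above both WT arrays on the exercised array and below both on the sedentary one, as did 20.9% of the probes, though Fos was only 0.04 under WT 1 there.

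The WT arrays themselves differed in these genes. All 8 members were higher on WT 2 than on WT 1, where 52.6% of the probes were. The gaps ran from 0.14 for Jun to 0.85 for Fos, with a median of 0.30 against 0.01 over the probes, and none was 2-fold. Egr1 differed by 0.36 and Btg2 by 0.38, gaps that 7.32% and 6.64% of the probes tested reached. For Btg2 the differences of both SPORTS arrays from WT were smaller than the gap within WT.

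The relatives and neighbours of these genes in the pathway were read from 7 lists with 106 genes, of which 71 were tested, with 1 probe a gene. On the sedentary SPORTS array 6 of the 71 were called higher and 2 lower, or 8.45% and 2.82%, beside 2.93% and 3.59% of all probes. On the exercised array 27 were called higher and 19 lower, or 38.0% and 26.8%, beside the 27.4% and 26.1% of all probes given above. SPORTS against WT called none. The median difference over the 71 was 0.06 on the exercised array, 0.12 on the sedentary one and 0.15 for SPORTS against WT. The genes moved both ways.

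Among 6 further AP-1 and related leucine zipper genes tested, Jund, another Jun family subunit, rose by 0.75 ± 0.06 on the sedentary array (adjusted p = 0.0422) and differed by -0.25 ± 0.06 on the exercised one (adjusted p = 0.0567). The small Maf gene Mafk rose by 0.94 ± 0.07 on the exercised array (adjusted p = 0.00713). Atf5, encoding a stress-related factor, fell by 1.51 ± 0.06 there (adjusted p = 0.00456). Of the 5 well above background on all arrays, 3 were called higher there and 1 lower. The other one, Maff, was well above background on the SPORTS arrays alone, at -2.81 on the exercised and -3.73 on the sedentary one, and its call is counted in the 27 but is no support. The probes used for Fosl2 and Jdp2 were well above background on no array.

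Of 8 Egr, NR4A and Krüppel-like relatives tested, 2 were called higher and 1 lower on the sedentary array, and 2 higher and 3 lower on the exercised one. The Krüppel-like factor gene Klf4 rose by 1.33 ± 0.06 on the sedentary array (adjusted p = 0.0323) and fell by 0.60 ± 0.06 on the exercised one (adjusted p = 0.0121). Klf2 likewise rose by 1.02 ± 0.06 and fell by 1.27 ± 0.06 (adjusted p = 0.0374 and 0.00501). Both genes are known to be induced by flow in endothelial cells. Klf9 fell by 0.86 ± 0.06 on the sedentary array (adjusted p = 0.0392), and Klf10 rose by 1.01 ± 0.11 on the exercised one (adjusted p = 0.0136). Nab2, the corepressor of Egr1, differed by 0.89 ± 0.10 on the sedentary array (adjusted p = 0.0506) and -0.06 ± 0.10 on the exercised one (adjusted p = 0.654). Egr2, Egr3 and Egr4 were well above background on no array.

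Of 10 feedback genes, which encode phosphatases and inhibitors that end such signals, 1 was called in each direction on the sedentary array. Nfkbia, the inhibitor of NF-kappaB, rose by 0.88 ± 0.07 on the sedentary and 0.54 ± 0.07 on the exercised array (adjusted p = 0.0406 and 0.0170). Rgs2, a brake on G protein signalling, fell by 1.03 ± 0.08 and 2.34 ± 0.08 (adjusted p = 0.0404 and 0.00434). On the exercised array 2 were called higher and 4 lower. Among those lower, the kinase phosphatase gene Dusp4 and Spry2 were not well above background there. Dusp4 was not so on WT 1 either. Some values depended on the probe. Other Crem probes differed by 0.54 to 1.97 on the exercised array, against 0.57 for the probe used. A second Spry4 probe differed by -1.85, against 0.01. Of 14 upstream regulators, 1 was called higher on the sedentary array, and 7 higher and 2 lower on the exercised one. Mapk9, encoding the kinase JNK2, rose by 0.91 ± 0.06 on the sedentary and 0.64 ± 0.06 on the exercised array (adjusted p = 0.0376 and 0.0109). Mapk14, encoding p38 alpha, rose by 1.31 ± 0.07 on the exercised array (adjusted p = 0.00546). The Ets factor gene Elk3 was called lower there (adjusted p = 0.0105), where it was not well above background.

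Of 19 other immediate early genes, 1 was called higher on the sedentary array, and 9 higher and 4 lower on the exercised one. Cebpd, a leucine zipper factor gene, rose by 1.01 ± 0.07 on the sedentary and 2.01 ± 0.07 on the exercised array (adjusted p = 0.0382 and 0.00434). Ier3 fell by 2.19 ± 0.06 (adjusted p = 0.00413) and Arc by 1.97 ± 0.14 (adjusted p = 0.00702) on the exercised array, so members of the same class ran both ways. Of 8 genes of mRNA decay and the BTG family none was called on the sedentary array, and 2 were called higher and 3 lower on the exercised one. The tristetraprolin relatives Zfp36l1 and Zfp36l2 fell by 1.01 ± 0.12 and 1.11 ± 0.07 there (adjusted p = 0.0147 and 0.00650), and the deadenylase gene Cnot7 rose by 0.88 ± 0.07 (adjusted p = 0.00887). Of 6 genes known as targets of tristetraprolin or AP-1, none was called on the sedentary array, and 1 was called higher and 2 lower on the exercised one. The chemokine gene Ccl2 rose by 2.35 ± 0.40 on the exercised array (adjusted p = 0.0281), with a WT gap of -0.77, Plau fell by 1.34 ± 0.19 and Ccnd1 by 0.84 ± 0.08 (adjusted p = 0.0200 and 0.0108).

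**Figure D5:**
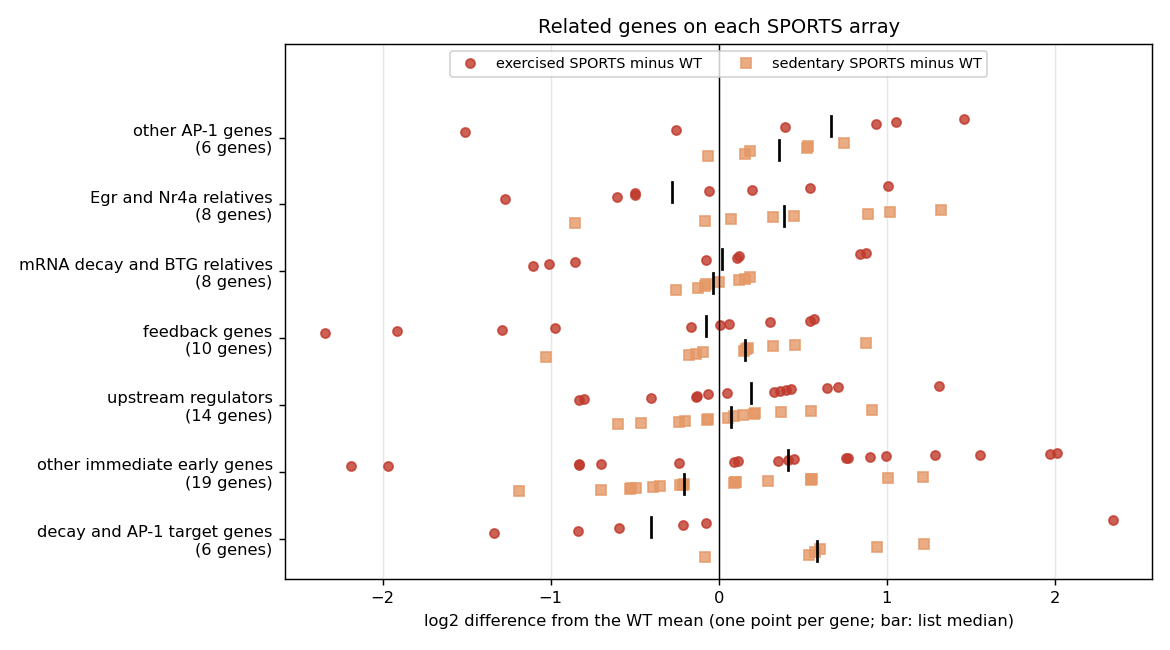
Log2 differences of the exercised (circles) and sedentary (squares) SPORTS arrays from the WT mean for each related gene tested, by list, with a bar at the list median. Points of every list lie on both sides of 0 on the exercised array, from -2.34 for Rgs2 to 2.35 for Ccl2.

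Markers of other cells moved on the same arrays, and fewer cells of a type and less RNA per cell cannot be told apart in bulk tissue. On the exercised array 8 of 8 fibroblast markers and 7 of 10 macrophage and monocyte markers were called lower than in WT. The summed macrophage signal was 19.0 on the exercised array, with 87.8 on the sedentary SPORTS array, against 56.2 and 38.7 on the WT arrays. For fibroblasts the sums were 103.7 and 262.1, against 347.4 and 345.4. Endothelial markers were called higher for 1 and lower for 2 of 6, with Cdh5 at -2.09, Tie1 at -0.36 and Cldn5 at 1.52 among those called on the exercised array and Pecam1 at -0.03. Of 4 adipocyte markers 2 were called lower, of 4 red blood cell markers 1 was called in each direction, and 4 of 7 neutrophil markers, S100a8, Csf3r, Mmp8 and Ngp, were well above background on no array. Of the other 3, S100a9 was so on the SPORTS arrays alone, Cxcr2 on the WT arrays alone and Retnlg on the sedentary SPORTS array alone. The red blood cell gene called higher, Hba-a3, was well above background on the SPORTS arrays alone, so its call is no support. Heat shock genes had 3 called higher and 2 lower of 7, with medians of 0.08 on the exercised and -0.03 on the sedentary array. Of 14 clock genes, 6 were called in each direction on the exercised array, and 3 higher and 6 lower on the sedentary one, among them Bmal1 (3.14) and Dbp (-2.27). The clock gene Ciart, called lower on both, was well above background on the WT arrays alone, so its calls are no support. The part of cell makeup, heat shock or time of day in the member values was not tested.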

How the data were processed

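Total RNA from skeletal muscle was amplified, labelled with Cy3 and hybridised in 1 colour, per the labels. Scanner images were read by Agilent Feature Extraction 10.7.1.1, per the submitters' processing notes and the file headers. The deposited intensity values are the processed signal, background-subtracted and detrended within each array, per the file headers, with no scaling between arrays; spot and local background medians are also intensity values. The deposited log2 value table followed the log2 processed signal with r = 1 for each pair of arrays over 30015 probes and had a median of 0 in every row, which fixes its scale, centring and direction. Its column medians were 0.17 (exercised SPORTS), -0.15 (sedentary SPORTS), 0.02 and -0.02 (WT).

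Control spots and outlier spots were left out, log2 values of the spots of a probe were averaged, and 352 of 30367 probes without a usable spot on some array were dropped. The array's 75th percentile was subtracted. No probe was saturated. Accessions were matched to RefSeq symbols (GRCr8) for 59.4% of the probes; the array's design used an older build, so only promoter windows carry coordinates. The 14769 probes well above background on at least 2 arrays were fitted with limma 3.58.1 in R 4.3.3, as 2 SPORTS against 2 WT arrays and as 3 groups, with the spread of the second taken from the WT pair. The two-sided p-values were adjusted by Benjamini-Hochberg over all probes and called below 0.05. A ± is the standard error of the fit. The scripts were tested on simulated data.

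The members and gene lists were chosen with earlier results of these data known. Every member is named. Of the 7 related lists, genes called in SPORTS or sedentary SPORTS against WT are named, and the 3 with the largest absolute SPORTS difference. Alternatives were normexp (offset 50) on the spot and background medians, quantile normalization, scaling by the median, both other filters, the authors' table, 1 probe a gene and leaving out each array.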

Additional observations from a re-analysis of the deposited data

Results flagged for a closer look

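Fos and Nr4a1 lay above both WT arrays on the exercised SPORTS array and below both on the sedentary one. So did 20.9% of the 13031 probes well above background on all 4 arrays, beside 2 of the 8 members. The exercised array was higher by 1.60 on the log2 scale for Fos and by 2.29 for Nr4a1. With 1 array on each side the difference was not tested, and for Fos the sedentary value was within 0.04 of WT 1.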

How the results depend on the processing

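Of 338 member differences under the alternatives, 312 kept their direction and their side of the threshold, or moved by less than the SD of the WT pair where no test applied. The 312 include settings that could hardly change a difference. Both filters and 1 probe a gene leave the differences themselves as they were. Leaving out the SPORTS array that a single-array comparison does not use repeats the main fit. The authors' table follows the same values with r = 1. A changed sign was seen in 10 of the 338. With 1 array left out, SPORTS against WT ran from -0.11 to 0.27 for Btg2 (-0.11 without WT replicate 1 and -0.10 without the sedentary SPORTS array), from -0.47 to 1.13 for Fos (-0.47 without the exercised array and -0.09 without WT replicate 1) and from -0.52 to 1.78 for Nr4a1 (-0.52 without the exercised array). With scaling by the median, exercised SPORTS against WT was 0.12 for Btg2 and 0.15 for Jun, and exercised against sedentary SPORTS 0.10 for Ier2. Exercised SPORTS against WT was 0.09 for Btg2 without WT replicate 2, and sedentary SPORTS against WT was -0.08 for Junb without WT replicate 1. The count of member probes called in SPORTS against WT ranged from 0 to 5 with 1 array left out (Nr4a3 included), and the count of all probes from 0 to 7895; normexp and quantile normalization each called 1 probe. In sedentary SPORTS against WT 1 member (Nr4a3) and 962 probes were called, but 2 (with Egr1) and 2390 with normexp, 0 and 0 with no filter on dim probes, and 2386 probes among those well above background on all 4 arrays. Leaving out a WT array leaves the 3-group fit no residual degrees of freedom, so it gave differences only. The 2-fold count between the SPORTS arrays was 3231 probes and 5474 with no filter. The cause of these changes was not tested, except that a filter changes which probes are adjusted over. No slide block was run, as all arrays share 1 slide. No paired analysis was possible because each SPORTS group is 1 array, so the groups share fewer than 2 replicate numbers. Nr4a3 in WT and Zfp36 on all arrays are limited by background.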
